A study of Mus musculus with 21 samples.

Results

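The response to 200 µM cobalt chloride (CoCl2) was measured in B16-F10, an established pigmented melanoma line from C57BL/6J mice. The cells chosen were those titled as exposed to 200 µM CoCl2 in experiment 3, for 24 h per the treatment protocol (2 arrays), and their reference was the 2 control arrays of experiment 3, kept at 21% oxygen. These are 4 of the 21 arrays of the series. The labels do not give the oxygen level of the CoCl2 cultures or the length of the control culture. Experiment 3 also held 2 arrays at 100 µM CoCl2, and 3 further sets compared cells after 24 h at 1% oxygen (9 arrays) with cells at 21% oxygen (6 arrays). All cultures were grown in RPMI medium with serum. Arrays of 1 group are named biological replicas in the labels, which leave unstated whether separate cultures were grown, and the p-values reflect array-to-array spread that may be technical. Total RNA was hybridised to Affymetrix Murine Genome U74Av2 arrays, whose probe sets each give 1 log2 signal per array. The report rests on 10833 probe sets with 1 gene name, which stand for 8251 genes.

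The hypoxia-inducible factor (HIF) is a pair of proteins, an oxygen-labile alpha subunit and the stable partner Arnt. Prolyl hydroxylases of the Egln family use oxygen and iron to mark the alpha subunit, and the von Hippel-Lindau protein (Vhl) then directs its destruction. Cobalt ions are known to interfere with this marking, so that the alpha subunit builds up in the presence of oxygen, and CoCl2 is widely used as a chemical mimic of hypoxia. Cobalt is also a heavy metal known to provoke oxidative stress, induction of haem oxygenase and damage to proteins. In melanocytes and melanoma cells, pigment is made by Tyr, Tyrp1 and Dct under the transcription factor Mitf.

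The 3′ minus 5′ signal of control transcripts, a measure of how complete the labelled RNA is, differed between the groups for some transcripts and not in 1 direction. For Gapdh it was 0.45 and 0.12 log2 units on the 200 µM arrays, against 2.21 and 0.92 on the control arrays. For Actb it was 1.47 and 0.50 on the 200 µM arrays, against 1.41 and 1.62 on the control arrays. For Pcx it was 0.60 and 0.62 on the 200 µM arrays, against 1.03 and 0.85 on the control arrays. For Tfrc it was 2.14 and 1.96 on the 200 µM arrays, against 1.69 and 1.66 on the control arrays, and for 18S ribosomal RNA it was 3.38 and 3.59 on the 200 µM arrays, against 2.97 and 2.94 on the control arrays. The Gapdh and Pcx values were thus lower on both 200 µM arrays, the Tfrc and ribosomal RNA values higher, and the Actb value lower on array 2 alone. The arrays of a pair correlated across probe sets at 0.986 at 200 µM and at 0.996 in the controls. The standard deviation within groups was 0.234 at 200 µM and 0.283 at 100 µM, against 0.093 to 0.164 in all other groups. Each SE and p-value below, unless stated otherwise, pools the spread of all 21 arrays. It can thus understate the uncertainty of the CoCl2 comparisons. In 104 genes the 200 µM arrays lay more than 1 log2 unit apart, with array 2 the higher in 102 of them, against 1 such gene in the controls. Most list counts against control below, but not the dose and hypoxia counts, are given with the part called in every one of 6 fits. These were the fits on all 21 arrays, on the arrays of experiment 3 alone, and without each of the 4 arrays in turn. Genes called in each of them are written as called in all 6 fits.

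**Figure D1:**
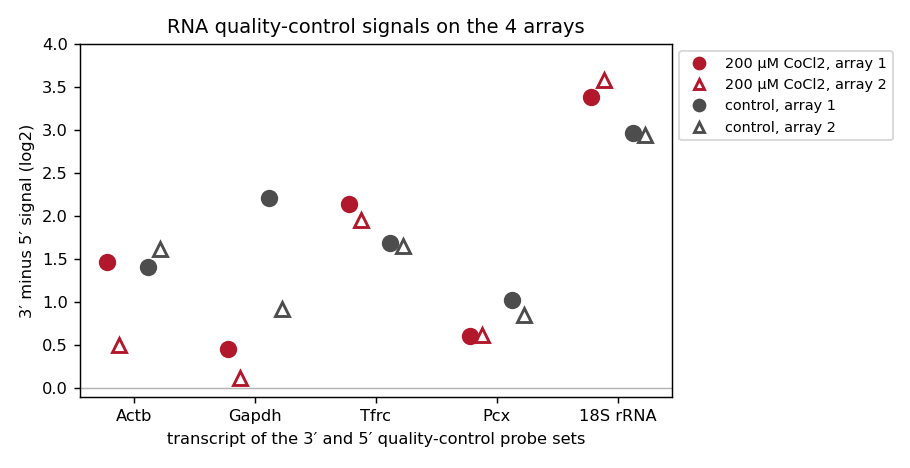
The 3′ minus 5′ signal (log2) of 5 quality-control transcripts is plotted for each 200 µM CoCl2 array (red, left of each pair) and each control array (grey). Both 200 µM arrays lie below both controls for Gapdh (0.45 and 0.12, against 2.21 and 0.92) and Pcx, and above them for Tfrc and 18S ribosomal RNA.

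At 200 µM CoCl2 the strongest rise was that of the chemokine gene Ccl5, and the strongest falls were those of Mki67 and Top2a, genes of dividing cells. Of 8251 genes, 3346 differed (40.6%), of which 1535 were higher (18.6%) and 1811 were lower (21.9%) than in the controls, by limma with Benjamini-Hochberg adjusted p under 0.05. Of these, 477 were higher (5.78%) and 1153 were lower (14%) in all 6 fits. These shares are the background for each list count against control below. By probe set, 1973 of 10833 were higher (18.2%) and 2131 lower (19.7%), or 37.9% in either direction. With the arrays of experiment 3 alone 1670 genes were called (20.2%), 494 higher (5.99%) and 1176 lower (14.3%). The values of the 200 µM and control arrays did not overlap in 69.6% of genes, 3356 higher and 2385 lower. Changes of at least 1 log2 unit were called for 224 genes higher and 652 lower. The median change over all genes was 0.11, with 0.16 among the 2733 genes whose mean signal lay under the 40th percentile and 0.05 among the other 5518. With the Gapdh 3′ minus 5′ value as a covariate, an alternative added after the data were seen, 814 probe sets were higher and 1169 lower. Without control array 1, 1111 probe sets were higher. In bulk RNA, fewer cells that express a gene and less RNA of it per cell cannot be told apart.

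**Figure D2:**
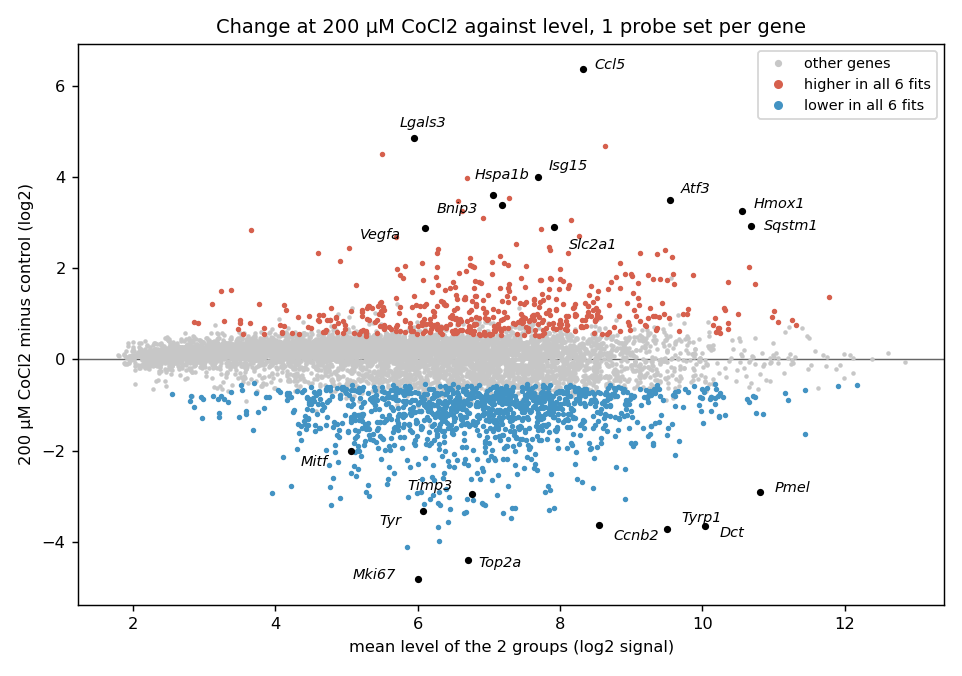
Each point is 1 of 8251 genes, with its mean log2 signal over the 200 µM and control groups on the x axis and the log2 change at 200 µM CoCl2 on the y axis. The 477 genes higher in all 6 fits are red, the 1153 genes lower in all 6 fits are blue, and Ccl5 at 6.37 and Mki67 at -4.83 are the extremes.

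Genes of glucose use and genes listed as HIF targets rose together. Of 18 measured genes of glucose uptake and glycolysis 15 rose, 12 of them in all 6 fits, none fell and 3 did not pass, with a median change of 0.81 against 0.11 over all genes. The glucose transporter gene Slc2a1 had 9.32 and 9.42 on the 200 µM arrays, against 6.57 and 6.36 on the control arrays, a rise of 2.91 ± 0.13 log2 units (SE, n = 2 arrays each; limma adjusted p = 1.0e-12). Both treated values lay well above both controls. In the fit of experiment 3 alone its SE was 0.18 (limma adjusted p = 1.1e-05). Hexokinase 2 (Hk2) had 10.18 and 10.20 at 200 µM, against 8.75 and 8.10 in the controls, a change of 1.77, although a second, dim probe set of this gene gave 0.14 and did not pass. The phosphofructokinase genes Pfkp (2.15) and Pfkl (2.12), the aldolase gene Aldoc (1.88), the pyruvate kinase gene Pkm (1.36), the enolase gene Eno2 (1.26), Pgk1 (0.86) and the lactate dehydrogenase gene Ldha (0.76) were also higher. Pfkm (-0.13), Pfkfb3 (0.27) and the lactate carrier gene Slc16a1 (0.28) did not pass the test.

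Outside glycolysis, 17 of 18 measured HIF targets rose, 16 of them in all 6 fits, with a median of 1.73. The list was chosen with earlier results of these data known, so this count is no independent result. Bnip3, which encodes a mitochondrial protein that marks mitochondria for removal, had 8.91 and 8.84 at 200 µM, against 5.65 and 5.33 in the controls, a change of 3.38 ± 0.18 (adjusted p = 5.7e-12). The angiogenic growth factor gene Vegfa had 7.26 and 7.82 at 200 µM, against 4.63 and 4.69 in the controls, a change of 2.88 ± 0.18. The gap between the groups exceeded the gap within either pair several-fold for both genes. This follows in part from naming genes with large changes and close pairs. The collagen prolyl hydroxylase genes P4ha2 (2.34) and P4ha1 (1.77), the atypical cyclin gene Ccng2 (2.28), Ndrg1 (2.25), the selenium-binding protein gene Selenbp1 (2.08) and the transcriptional repressor gene Bhlhe40 (1.78) followed. The vasodilator gene Adm rose by 1.13 and the natriuretic peptide gene Nppb by 0.84. Car12 (0.14) did not pass. Lgals3, the gene of the lectin galectin-3, had 8.48 and 8.29 at 200 µM, against 3.52 and 3.50 in the controls, and its change of 4.87 was the second highest among genes whose arrays lay within 1 log2 unit in each pair. With the Gapdh value as covariate 13 of the glycolysis genes and 15 of the HIF targets were called higher.

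The HIF machinery itself changed less. The transcripts of the alpha subunits did not pass: Hif1a had 10.01 and 9.60 at 200 µM, against 10.20 and 10.10 in the controls (-0.35, limma adjusted p = 0.094), and Epas1 changed by 0.32 (adjusted p = 0.078). Hif1a was called lower without 200 µM array 1 (-0.55, adjusted p = 0.023). The partner Arnt rose by 1.26, although its second probe set gave 0.00. The oxygen-sensing hydroxylase gene Egln1 rose by 0.93 and Vhl by 0.77, while the coactivator gene Crebbp fell by 0.91. In all, 4 of 11 measured genes rose and 1 fell.

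The promoter of Bnip3 is shown because Bnip3 had the highest rise among the HIF targets outside glycolysis. The 250 bases before its RefSeq start (GRCm38.p6, chr7:138909507-138909756, minus strand) hold the core of the hypoxia response element, ACGTG, on both strands at 1 overlapping place, in capitals.
Bnip3: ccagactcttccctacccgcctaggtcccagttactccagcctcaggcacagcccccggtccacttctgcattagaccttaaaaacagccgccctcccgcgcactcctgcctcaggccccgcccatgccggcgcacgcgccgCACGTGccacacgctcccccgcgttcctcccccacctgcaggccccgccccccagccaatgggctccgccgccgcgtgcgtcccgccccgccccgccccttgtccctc
This core, searched on both strands, was present in 10 of 22 promoter windows of the measured HIF targets (45.5%) and in 13 of 28 of the glycolysis genes (46.4%), against 5444 of all 32851 windows (16.6%). A match is a run of letters and not a measured binding site.

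Single chemokine and antiviral genes gave some of the largest rises. Ccl5, a chemokine that draws T cells and monocytes, had 11.51 on both 200 µM arrays, against 5.12 and 5.16 on the control arrays, a rise of 6.37 ± 0.15 log2 units or 82.7-fold (limma adjusted p = 3.8e-17). The arrays within each group were nearly equal, and the groups did not overlap. In the fit of experiment 3 alone the SE of Ccl5 was 0.18 (limma adjusted p = 1.6e-07). Cxcl10, an interferon-inducible chemokine gene, had 5.83 and 5.72 at 200 µM, against 3.45 and 3.42 in the controls, a change of 2.34. Of 16 measured chemokine genes 3 rose, 2 in all 6 fits, and none fell, which is close to the 18.6% of all genes. Cxcl1 (0.02) and Ccl2 (-0.04) did not pass.

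Isg15, which encodes a ubiquitin-like protein made after interferon, had 9.61 and 9.77 at 200 µM, against 5.61 and 5.76 in the controls, a rise of 4.01 ± 0.17 (adjusted p = 4.3e-13). The nuclease gene Isg20 (2.69), the RNA sensor gene Ifih1 (2.17), the antiviral gene Rsad2 (2.05) and Ifit1 (0.81) rose as well. Ifit2 fell by 1.33 and the guanylate-binding protein gene Gbp2 by 0.90. Of 22 measured antiviral genes 6 rose and 4 fell, 5 and 2 of them in all 6 fits, against 18.6% and 21.9% of all genes, and the median of 0.11 equalled that of all genes. The fallen members numbered 2 without 200 µM array 2. Mx1 (0.15) and Ifit3 (0.31) did not pass, nor did the interferon gene Ifnb1 (0.27) or the regulators Irf7 (0.13) and Irf1 (-0.10). Among 16 genes of interferon signalling 4 rose and 2 fell, beside the same 18.6% and 21.9% of all genes. In all 6 fits only the falls of Jak2 (-0.79, with a second probe set at 0.21 that did not pass) and the receptor gene Ifnar1 (-0.61) were called. Gm9706, annotated as a pseudogene and measured by a family probe set, rose by 4.50.

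The Isg15 promoter is shown because its rise was the highest among the antiviral genes. In the 250 bases before its start (GRCm38.p6, chr4:156200819-156201068, minus strand) the core of the interferon-stimulated response element, GAAA followed after 2 bases of any kind by GAAA, occurs at 3 overlapping places, in capitals.
Isg15: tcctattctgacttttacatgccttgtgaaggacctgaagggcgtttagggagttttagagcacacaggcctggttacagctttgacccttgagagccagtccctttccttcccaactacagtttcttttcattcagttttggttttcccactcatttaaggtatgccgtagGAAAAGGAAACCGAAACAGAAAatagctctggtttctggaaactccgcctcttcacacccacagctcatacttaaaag
The core was found on either strand in 9 of 24 windows of the antiviral genes (37.5%), against 3.0% of all windows. The genes with a match include Isg15, Rsad2 and Ifit1, which rose, Gbp2, which fell, and Ifit3 and Oas1g, which did not pass.

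The NF-kB list held 9 of 19 measured genes that rose, but only 3 in all 6 fits, and 3 without control array 1. Ier3, an early response and survival gene, had 10.45 and 11.49 at 200 µM, against 6.14 and 6.43 in the controls, a change of 4.68 ± 0.22, with the treated arrays 1 log2 unit apart. Nfkb2 (1.2) and the inhibitor gene Nfkbia (1.13) were the other 2, and Tnfaip2 fell by 0.95. Of 13 genes of class I antigen presentation 4 rose and 2 did so in all 6 fits, H2-K1 (2.71) and H2-D1 (2.47), both read by family probe sets, and a further H2-K1 set gave 0.35 and did not pass. Without 200 µM array 1 the count was 2, and without array 2 it was 6. The peptide transporter gene Tap1 (0.17) and B2m (0.34) did not pass.

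**Figure D3:**
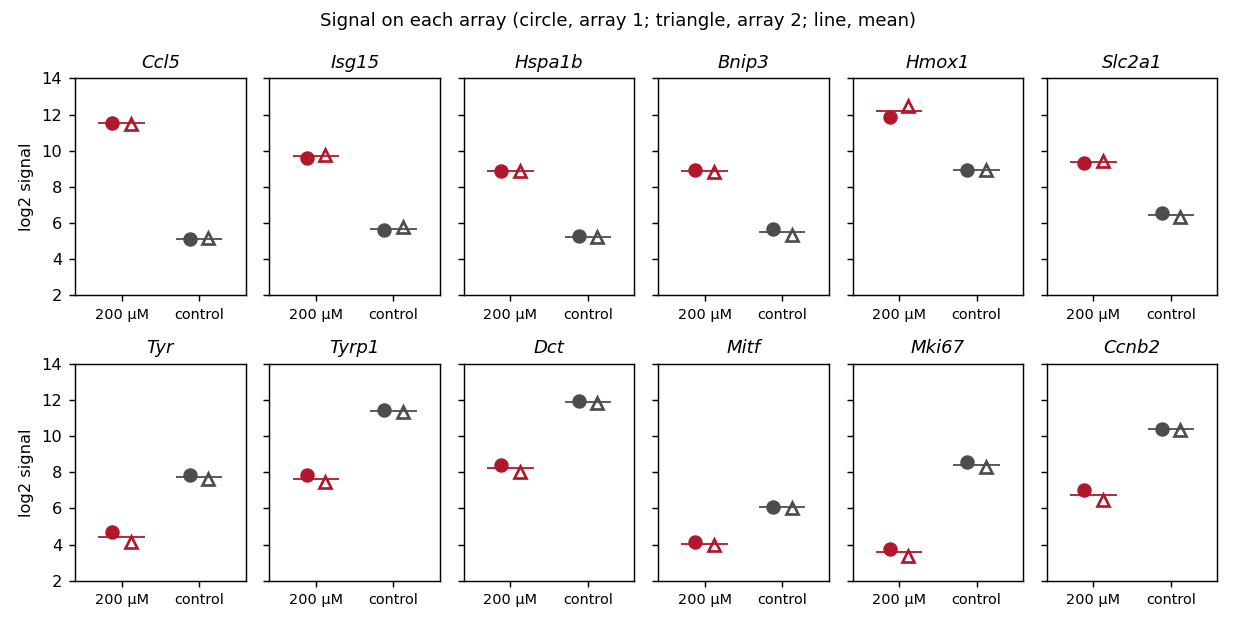
The log2 signal of 12 genes is shown on each 200 µM CoCl2 array (red, left) and each control array (grey, right), with circles for array 1, triangles for array 2 and a line at the mean. In all 12 genes the groups do not overlap, as in 69.6% of all genes. The 12 were picked from the named genes, so this is no independent result. Ccl5 stands at 11.51 against 5.12 and 5.16, and Mki67 at 3.78 and 3.40 against 8.55 and 8.29.

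Some genes of the oxidative stress response rose. Hmox1, haem oxygenase 1, had 11.88 and 12.50 at 200 µM, against 8.93 and 8.94 in the controls, a rise of 3.25 ± 0.15 log2 units (9.54-fold, limma adjusted p = 8.4e-13). The sulfiredoxin gene Srxn1 had 8.09 and 8.85 at 200 µM, against 5.50 and 5.23 in the controls, a change of 3.10, with a second probe set at 0.55 that also passed. Sqstm1, the autophagy receptor p62, rose by 2.92, and the glutathione synthesis genes Gclm and Gclc rose by 1.95 and 0.90. The cystine carrier gene Slc7a11 rose by 1.53. Of 24 measured targets of the oxidant-sensing factor NRF2, 10 rose and 1 fell, 6 and 0 of them in all 6 fits, and the median was 0.35. Nqo1 (-0.36), Txnrd1 (-0.37) and Nfe2l2 (-0.30), the gene of NRF2 itself, did not pass. The core TGANNNNGC of the antioxidant response element was in 11 of 24 of their promoter windows (45.8%), against 35.2% of all windows.

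Of 14 genes of metal binding and transport 6 rose and 3 fell, 3 and 1 of them in all 6 fits, with a median of 0.18 against 0.11 over all genes. Among all genes 18.6% rose and 21.9% fell, 5.78% and 14% in all 6 fits, so falls were no more frequent in this list. The metallothionein gene Mt2 had 11.10 and 11.78 at 200 µM, against 10.52 and 10.50 in the controls (0.93 ± 0.16), Mt3 rose by 0.56, and the metal-responsive factor gene Mtf1 rose by 0.78. Mt1 had 8.74 and 12.16 at 200 µM, against 8.40 and 8.93 in the controls. Its treated arrays disagreed more than those of any other gene, and its change of 1.79 (adjusted p = 0.016) was lost in the fit of experiment 3 alone (adjusted p = 0.17) and was 0.08 without 200 µM array 2 (adjusted p = 0.77). Without 200 µM array 2 it was thus near 0. The zinc exporter gene Slc30a4 fell by 0.77, and its second probe set gave 0.39 and did not pass. With the Gapdh value as covariate 2 members rose and 0 fell, and Mt1, Mt3 and Slc30a4 lost their calls.

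Among 11 genes of iron handling, Hmox1 included, 4 rose and 4 fell, against 18.6% and 21.9% of all genes. The transferrin receptor gene Tfrc rose by 0.64, Alas1, the first enzyme of haem synthesis, by 0.71 and, not in all 6 fits, the ferritin gene Fth1 by 0.46. Ceruloplasmin (Cp) had 4.46 and 4.83 at 200 µM, against 6.39 and 6.23 in the controls, a fall of 1.67 on the log2 scale. The iron sensor gene Ireb2 fell by 0.99. Tfrc and Ireb2 lost their calls with the Gapdh covariate, and Tfrc also with the Actb covariate.

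The integrated stress response split into members that rose and members that fell. Of 24 measured genes 9 rose and 8 fell, 6 and 7 of them in all 6 fits. The stress transcription factor gene Atf3 had 11.49 and 11.11 at 200 µM, against 7.77 and 7.81 in the controls, a rise of 3.50 ± 0.23 by a family probe set. Its second probe set gave 3.34 and another 0.21, which did not pass. The phosphatase regulator gene Ppp1r15a (1.84), Ddit3 (1.82), which encodes CHOP, and Atf4 (1.00) rose. The amino acid carrier genes Slc7a5 (-1.68), Slc1a4 (-1.52) and Slc1a5 (-1.22), the serine synthesis gene Psat1 (-1.47) and the asparagine synthetase gene Asns (-0.74) fell. Of 18 genes of the unfolded protein response of the endoplasmic reticulum 3 rose and 4 fell, in all 6 fits 1 and 2, which is near the 18.6% and 21.9% of all genes. The sensor gene Atf6 had 4.18 and 4.10 at 200 µM, against 6.30 and 6.23 in the controls (-2.13 ± 0.15), and Manf fell by 0.95. Hspa5, the main chaperone of that compartment, changed by 0.59 and was not called in all 6 fits. Sel1l rose by 1.73 by 1 probe set and fell by 1.41 by the other, so its direction is unsettled.

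Immediate early genes of the AP-1 family and its neighbours moved as well. Of 22 measured, 13 rose and 6 fell, 8 and 3 of them in all 6 fits. Jun (1.71), Junb (1.28) and the phosphatase gene Dusp1 (1.57) rose. Dusp6, a phosphatase and feedback target of ERK signalling, had 5.38 and 5.29 at 200 µM, against 8.48 and 8.49 in the controls, a fall of 3.15 ± 0.15 on the log2 scale, while a second, dim probe set gave 0.12. Klf10 fell by 1.92. Fos changed by -1.23 and did not pass in the fit of experiment 3 alone (adjusted p = 0.060).

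Cytosolic heat shock genes and proteasome subunits were higher. Hspa1b, an inducible Hsp70, had 8.86 on both 200 µM arrays, against 5.28 and 5.22 on the control arrays, a rise of 3.61 ± 0.24 (limma adjusted p = 1.9e-10). The near-identical copy Hspa1a gave 0.12 by its own probe set and did not pass, so the assignment of signal between the 2 copies is uncertain. The constitutive Hsp70 gene Hspa8 (1.77), the co-chaperone gene Bag3 (1.71), the small heat shock protein gene Cryab (1.78, by a family probe set), Hspa4l (1.37), Hspb8 (1.31), Stip1 (0.90), Dnajb1 (0.89) and Hsph1 (0.82) rose. The mitochondrial chaperonin gene Hspd1 fell by 0.73, while its second probe set rose by 0.43, so its direction is unsettled. Of 20 measured heat shock genes 12 rose and 3 fell, 10 and 2 of them in all 6 fits, with a median of 0.59. The heat shock element was searched as GAA, TTC and GAA with 2 bases of any kind between them. Only 16 of the 20 measured members had a promoter window, and Hspa1b had none. The element was found in the windows of 2 members, Hspd1 and Hspe1 (9.1% of the list's windows, against 0.5% of all). The probe sets that stand for these 2 genes were called lower (-0.73 and -0.50, the second not in all 6 fits).

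Of 30 measured proteasome subunits and activators 21 rose and 1 fell, 11 and 1 of them in all 6 fits, with a median of 0.57. The proteasome is the protease that degrades ubiquitin-tagged proteins. The ubiquitin receptor gene Psmd4 had 10.07 and 10.79 at 200 µM, against 8.71 and 8.82 in the controls, a rise of 1.66 ± 0.16. Psmb3 had 10.28 and 11.30 at 200 µM, against 8.63 and 9.24 in the controls (1.85). Array 2 was the higher of the treated pair for both. Psmd8 (0.99), Psma5 (1.00) and Psmb7 (0.95, by a family probe set) rose, and the activator gene Psme3 fell by 1.04. With experiment 3 alone 11 rose, with the Gapdh covariate 15, and without 200 µM array 2 16. With the Gapdh covariate Psme3 lost its call (-0.75, adjusted p = 0.087) and 0 members fell.

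Genes of the lysosome and of autophagy rose in 15 of 31 cases and fell in 2, 9 and 2 of them in all 6 fits. Gabarapl1, a protein of autophagosome membranes, had 9.94 and 10.65 at 200 µM, against 7.94 and 7.95 in the controls, a rise of 2.35. Gabarap (1.07), the protease genes Ctsb (1.13, with 3 further dim probe sets between -0.04 and 0.15) and Ctsd (0.91) and the sterol carrier gene Npc1 (0.97) rose. The hydrolase genes Glb1 (-1.38) and Hexa (-0.89) fell. With experiment 3 alone 9 rose.

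**Figure D4:**
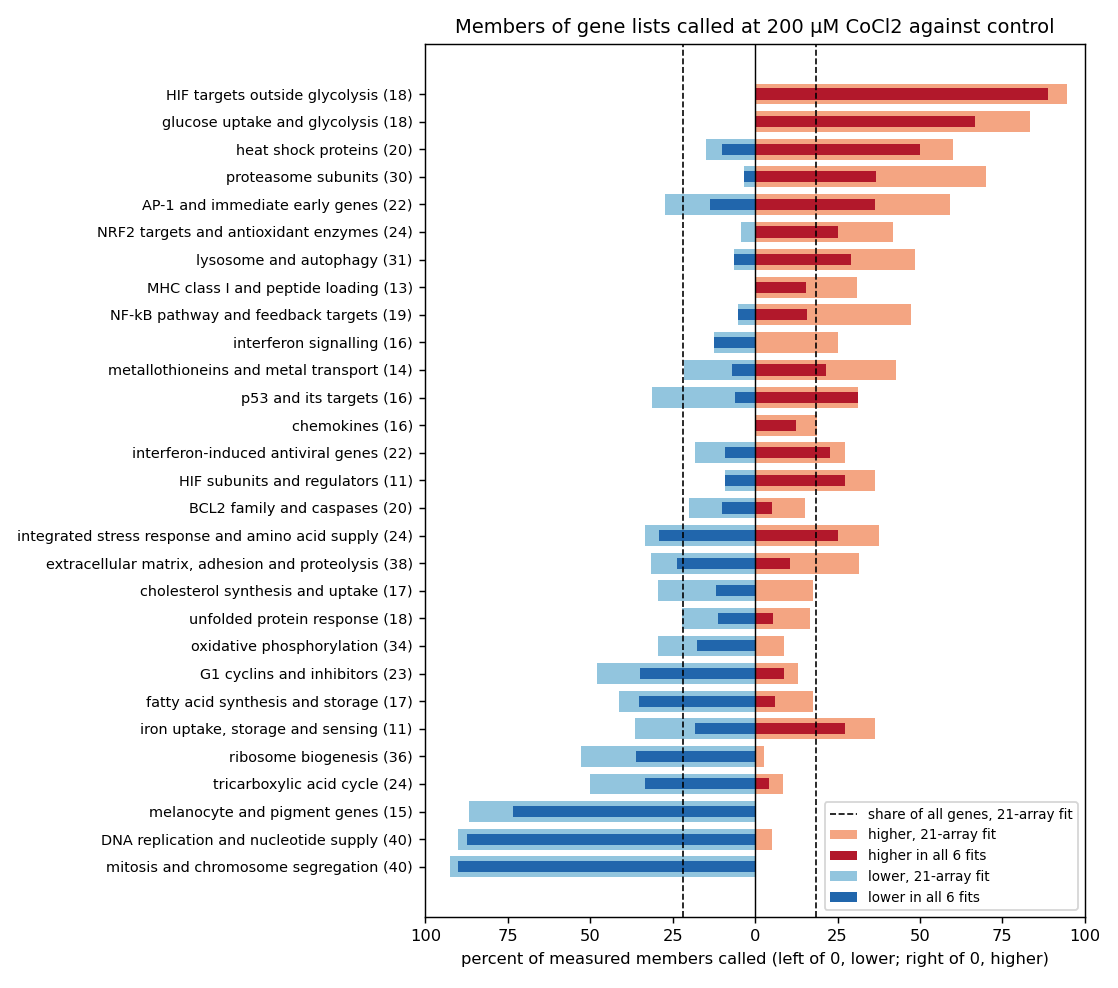
For each of 29 gene lists, named with the number of measured members, pale bars give the percent of members called higher (right) and lower (left) at 200 µM CoCl2 in the fit on 21 arrays and dark bars the percent called in all 6 fits. Dashed lines mark the shares of all genes (18.6% higher, 21.9% lower); HIF targets (17 of 18) and glycolysis (15 of 18) reach farthest to the right, mitosis (37 of 40), DNA replication (36 of 40) and pigment genes (13 of 15) farthest to the left.

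Genes of cell division fell, and almost every measured member did so. Of 40 genes of mitosis and chromosome segregation 37 fell, 36 of them in all 6 fits, none rose and 3 did not pass. The median was -2.20. Mki67, the gene of the proliferation antigen Ki-67, had 3.78 and 3.40 at 200 µM, against 8.55 and 8.29 in the controls, a fall of 4.83 ± 0.20 on the log2 scale (limma adjusted p = 3.6e-13). Its 200 µM values lay under 5.03, the 40th percentile of mean signal, and no fold is given against so low a level. A second probe set of Mki67 at low signal gave 0.44 and was called higher. The topoisomerase gene Top2a had 4.59 and 4.41 at 200 µM, against 9.07 and 8.73 in the controls (-4.40 ± 0.16). The mitotic cyclin gene Ccnb2 had 7.0 and 6.46 at 200 µM, against 10.38 and 10.36 in the controls (-3.64 ± 0.16). In all 3 genes the treated arrays lay several log2 units below both controls. Birc5 (-3.34), Anln (-3.31), Nusap1 (-3.38, with a second set at -0.05), the kinesin gene Kif23 (-3.26), the kinase gene Aurka (-3.07), Cdc20 (-2.83) and Cdk1 (-2.41) fell, while Pttg1 (-0.18), Ube2c (0.09) and Cenpe (0.14) did not pass.

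Of 40 genes of DNA replication and nucleotide supply 36 fell, 35 of them in all 6 fits, and 2 rose, 0 of them in all 6 fits. The median was -1.65. Pclaf, a partner of the sliding clamp, had 3.94 and 4.66 at 200 µM, against 8.45 and 8.14 in the controls (-4.0 ± 0.22), with further sets at -0.95, which passed, and -0.12, which did not. The helicase loader gene Cdc6 had 4.62 and 4.28 at 200 µM, against 8.08 and 8.18 in the controls (-3.68 ± 0.15). The ribonucleotide reductase gene Rrm2 (-3.20), the polymerase gene Pola1 (-3.16), the helicase genes Mcm2 (-2.69) and Mcm3 (-2.52) and the clamp gene Pcna (-1.84) fell. Dut (-0.06) and Mcm6 (0.22) did not pass.

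Regulators of the G1 phase followed for part of the list. Of 23 measured 11 fell and 3 rose, 8 and 2 of them in all 6 fits. Cdk2 had 6.27 and 6.31 at 200 µM, against 9.53 and 9.57 in the controls (-3.26), and the pocket protein gene Rbl1 changed by -3.17. Ccnd1 fell by 1.83 and Cdk4 by 1.66, while further sets of Cdk2 (-0.21) and Ccnd1 (-0.13) did not pass. The inhibitor gene Cdkn1a, a p53 target, had 8.24 and 9.89 at 200 µM, against 6.59 and 6.72 in the controls, a rise of 2.41 ± 0.30 with the treated arrays 1.64 log2 units apart. Of 16 measured p53 targets 5 rose and 5 fell, 5 and 1 of them in all 6 fits. The shares of all genes were 18.6% and 21.9%, or 5.78% and 14% in all 6 fits. Members called in all 6 fits include Plk2 (1.43), Mdm2 (1.10), Gadd45a (0.98), Phlda3 (0.87) and Ei24 (-0.67). Myc fell by 0.70 and lost its call with the Gapdh covariate (adjusted p = 0.087). With that covariate 35 mitosis and 36 replication genes were called lower and 6 G1 genes.

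The promoter of Ccnb2 is shown as that of a mitotic gene with a large and steady fall. Its 250 bases before the start (GRCm38.p6, chr9:70421555-70421804, minus strand) hold the letters TTTGAA of the cell cycle genes homology region, in capitals, at 1 place.
Ccnb2: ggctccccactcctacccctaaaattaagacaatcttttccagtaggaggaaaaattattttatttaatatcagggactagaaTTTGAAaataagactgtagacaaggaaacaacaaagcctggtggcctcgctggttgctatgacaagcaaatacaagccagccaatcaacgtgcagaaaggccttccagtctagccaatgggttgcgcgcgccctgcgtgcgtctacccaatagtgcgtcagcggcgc
TTTGAA was found on either strand in 16 of 36 windows of the mitosis genes (44.4%), against 16% of all windows, and CCAAT in 28 of 36 (77.8%), against 33.8%. The E2F site TTCCCGC was found in 10 of 43 windows of the replication genes (23.3%), against 3.8%.

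Pigment cell genes fell. The control arrays carried the defining melanocyte markers, and of 15 measured melanocyte and pigment genes 13 fell, 11 of them in all 6 fits, none rose and 2 did not pass. The median was -1.42. Tyrosinase (Tyr), the first enzyme of melanin synthesis, had 4.71 and 4.13 at 200 µM, against 7.85 and 7.63 in the controls, a fall of 3.32 ± 0.30 on the log2 scale (limma adjusted p = 1.5e-08). Tyrp1, a further enzyme of melanin synthesis, had 7.85 and 7.44 at 200 µM, against 11.43 and 11.31 in the controls, a fall of 3.72 ± 0.15. Further sets of Tyrp1 gave -3.80 and -2.47, and a dim one gave -0.17 and did not pass. The dopachrome tautomerase gene Dct had 8.43 and 8.00 at 200 µM, against 11.94 and 11.81 in the controls, a fall of 3.66 ± 0.13. For these 3 enzymes both treated arrays lay far below both controls.

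The melanosome matrix gene Pmel fell by 2.92, the melanosome transport gene Mlph by 2.62 and the melanosome receptor gene Gpr143 by 2.57. Among the regulators, Mitf had 4.12 and 4.0 at 200 µM, against 6.10 and 6.04 in the controls (-2.01 ± 0.15), Sox10 fell by 1.19, the melanocortin receptor gene Mc1r by 1.42 and Pax3 by 0.86. Ptgds (-0.49) and Kit (-0.40) were called in the fit on 21 arrays and not in all 6. Trpm1 (-0.05) and Ednrb (0.30) did not pass. With the Gapdh covariate 12 of the 15 were called lower.

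The promoters of the 3 enzymes are shown together because the enzymes fell side by side and each window holds the letters CATGTG of the M-box, in capitals, in either orientation, which MITF is known to bind. The windows are the 250 bases before the RefSeq start in GRCm38.p6 for Tyr (chr7:87493513-87493762, minus strand), Tyrp1 (chr4:80833963-80834212, plus strand) and Dct (chr14:118052247-118052496, minus strand), which has 2 places.
Tyr: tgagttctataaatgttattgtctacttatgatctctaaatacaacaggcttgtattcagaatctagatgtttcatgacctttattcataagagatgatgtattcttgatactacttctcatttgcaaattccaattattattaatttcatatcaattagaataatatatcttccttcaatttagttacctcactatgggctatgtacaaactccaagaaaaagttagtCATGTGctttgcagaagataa
Tyrp1: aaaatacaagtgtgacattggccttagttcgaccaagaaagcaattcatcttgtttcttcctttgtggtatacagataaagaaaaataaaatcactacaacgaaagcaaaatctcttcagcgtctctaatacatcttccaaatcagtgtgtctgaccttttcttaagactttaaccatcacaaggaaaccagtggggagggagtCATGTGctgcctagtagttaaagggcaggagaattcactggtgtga
Dct: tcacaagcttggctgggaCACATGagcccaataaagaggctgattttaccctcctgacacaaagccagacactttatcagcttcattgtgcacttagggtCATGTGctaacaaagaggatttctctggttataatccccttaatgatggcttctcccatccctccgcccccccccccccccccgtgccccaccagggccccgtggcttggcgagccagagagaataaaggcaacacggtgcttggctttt
CATGTG was found in 6 of 15 windows of the measured pigment genes (40%), against 12.3% of all windows, and Trpm1 and Mc1r were also among the genes with a match.

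Of 24 genes of the tricarboxylic acid cycle 12 fell and 2 rose, 8 and 1 of them in all 6 fits, with a median of -0.44. Suclg2 had 7.15 and 7.28 at 200 µM, against 9.33 and 9.16 in the controls (-2.03 ± 0.13), and the isocitrate dehydrogenase genes Idh2 and Idh1 fell by 1.93 and 0.94. Of 34 genes of oxidative phosphorylation 10 fell and 3 rose, 6 and 0 in all 6 fits, near the 21.9% lower among all genes (14% in all 6 fits). Those lower in all 6 fits include Sdhb (-1.21), cytochrome c (Cycs, -1.21) and the complex I genes Ndufb5 (-0.83, family probe set) and Ndufs1 (-0.71). With the Gapdh covariate 6 genes of the cycle and 4 of oxidative phosphorylation were called lower, and the calls of Idh1 (adjusted p = 0.10) and Ndufs1 (0.076) were lost.

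Among 36 genes of ribosome biogenesis, falls were called for 19 (13 in all 6 fits) and a rise for 1, with a median of -0.39. The nucleolar gene Nop56 had 8.24 and 7.91 at 200 µM, against 9.93 and 10.01 in the controls (-1.90 ± 0.13), and Nhp2 (-1.79) and Rrp1b (-1.73) fell as well. Of 17 genes of fatty acid synthesis and storage 7 fell and 3 rose, 6 and 1 in all 6 fits. The elongase gene Elovl6 fell by 1.75 and the desaturase gene Fads1 by 1.00. Scd1 fell by 1.07 and by 0.96 with a second set, while another set rose by 0.77. The lipin gene Lpin1 rose by 0.95. Of 17 cholesterol genes 5 fell and 3 rose, and in all 6 fits only Idi1 (-1.53) and Dhcr7 (-0.93) were called, both lower. Among all genes 18.6% rose and 21.9% fell, 5.78% and 14% in all 6 fits, so the cholesterol counts were near those shares.

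Of 38 genes of matrix, adhesion and proteolysis 12 rose and 12 fell, against 18.6% and 21.9% of all genes. In all 6 fits 4 rose and 9 fell, against 5.78% and 14% of all genes. The higher count was 7 without 200 µM array 2, 7 without control array 2 and 5 in the fit of experiment 3. The 4 higher in all 6 fits were Lgals3, Ccn1 (1.57), the plasminogen activator gene Plat (1.48) and the urokinase receptor gene Plaur (0.89). The metalloprotease inhibitor gene Timp3 had 5.28 and 5.31 at 200 µM, against 8.18 and 8.30 in the controls, a fall of 2.94 ± 0.15. The basement membrane genes Col4a1 (-1.83) and Lama4 (-1.62) and the integrin genes Itga6 (-1.68) and Itga4 (-1.89, with further sets at -1.16 and 0.04) fell. Of 20 genes of the BCL2 family and caspases 3 rose and 4 fell, no more than the 18.6% and 21.9% of all genes, and in all 6 fits only Bnip3 rose and Casp2 (-0.80) and Bid (-0.74) fell.

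Outside the lists, further genes stood among the 15 highest and 15 lowest steady changes. The stathmin gene Stmn4 (3.26), the linker histone gene H1f2 (3.06) and the desmosome gene Pkp2 (3.54, by a family probe set, with a further set at 3.27) rose. The actin-linked gene Limch1 (-4.11), Eps8 (-3.57), an adaptor of growth factor receptor signalling, the connexin gene Gjb2 (-3.47) and Marcks (-3.38), a substrate of protein kinase C, fell. Limch1 had 3.59 and 4.01 at 200 µM, against 8.00 and 7.83 in the controls. The aryl hydrocarbon receptor gene Ahr had 3.82 and 3.51 at 200 µM, against 5.33 and 5.04 in the controls, a fall of 1.52 ± 0.20.

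Markers of other cell types were looked at beside these groups. Of 14 leukocyte markers 3 rose, 1 in all 6 fits. That 1 was Cd68, also a lysosomal protein, with 8.11 and 9.24 at 200 µM, against 4.46 and 4.94 in the controls, and its second, dim probe set did not pass. The pan-leukocyte marker Ptprc had 3.26 and 3.14 at 200 µM, against 3.16 and 3.13 in the controls. Summed on the linear scale, the leukocyte list gave 889 and 1137 at 200 µM, against 484 and 516 in the controls. Cd68 had the highest level of this list at 200 µM and weighs most in that sum, and the median change was 0.30. The fibroblast list (3 of 13 higher, 2 lower) gave 1007 and 938 at 200 µM, against 982 and 960 in the controls. The endothelial list (1 of 10 lower, Eng at -0.87) gave 1160 and 991 at 200 µM, against 1757 and 1674 in the controls. Eng, with 9.80 and 9.53 against 10.58 and 10.49 on the log2 scale, made up most of that sum. The median change of the endothelial list was 0.12. The epithelial list (4 of 12 higher, 0 in all 6 fits) gave 375 and 352 at 200 µM, against 280 and 296 in the controls. The processed values have no 0, so absence of a marker cannot be read from them, and the part of other cells in the results was not tested beyond these values.

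The 200 µM arrays were then set against the 100 µM arrays, a direct comparison that does not use the controls. Of 8251 genes 1296 differed (15.7%), 603 higher (7.31%) and 693 lower (8.4%) at 200 µM than at 100 µM. By probe set 740 were higher (6.83%) and 817 lower (7.54%). The Actb 3′ minus 5′ value was 1.47 and 0.50 at 200 µM, against 2.36 and 2.16 at 100 µM. With this value as a covariate 137 probe sets were called, with the arrays of experiment 3 alone 115, and without 200 µM array 2 682, while without 100 µM array 2 there were 2364. The 6 genes with the largest difference in each direction are given. They were taken among steady genes called for the dose in the fit on all arrays and without each single 100 or 200 µM array.

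Hspa1b had 8.86 on both 200 µM arrays, against 5.30 and 6.20 on the 100 µM arrays, a difference of 3.11 ± 0.24 (limma adjusted p = 5.7e-08). The leukocyte receptor gene Lilr4b (2.19), Hsph1 (1.94), the secreted kinase gene Pkdcc (1.83), the cyclin F gene Ccnf (1.70) and Stip1 (1.62) were also higher at 200 µM. Ccnf and Stip1 lost their calls with the Actb covariate (adjusted p = 0.067 and 0.050). Tyrp1 had 7.85 and 7.44 at 200 µM, against 10.16 and 10.38 at 100 µM, a difference of -2.63 ± 0.15. Dct (-2.19), the adhesion gene Cadm1 (-2.36), Ifit1 (-2.09), Scd1 (-1.85) and the dehydrogenase gene Dhrs7 (-1.77) were lower at 200 µM. Ifit1 had 3.31 and 3.17 in the controls, 5.95 and 6.32 at 100 µM and 4.18 and 3.91 at 200 µM, so its highest level was at the lower dose of CoCl2.

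The list counts between doses stand beside 7.31% higher and 8.4% lower among all genes. By list, 12 of 20 heat shock genes were higher at 200 µM than at 100 µM, 5 with experiment 3 alone and 4 with the Actb covariate. Their median change against control was -0.01 at 100 µM and 0.59 at 200 µM, from comparisons that share the control arrays. Of 15 pigment genes 9 were lower at 200 µM, 3 with experiment 3 alone and 4 with the Actb covariate, and none was higher. The median change of the pigment list against control was -1.31 at 100 µM and -1.42 at 200 µM. Of 30 proteasome genes 13 and of 36 ribosome biogenesis genes 15 were higher at 200 µM, but with the Actb covariate 0 of either list was. Among 22 antiviral genes 8 were lower and 1 higher, with experiment 3 alone 2 and 1, and with the Actb covariate 1 and 0. Of 17 cholesterol genes 7 were lower, 0 with experiment 3 alone and 2 with the Actb covariate. Against control, Isg20, Ifih1 and Rsad2 rose by 3.48, 3.08 and 3.16 at 100 µM and by 2.69, 2.17 and 2.05 at 200 µM. Isg15 rose by 2.86 and 4.01. The HIF targets had a median change against control of 1.79 at 100 µM and 1.73 at 200 µM, with 4 members higher and 6 lower at the higher dose. With experiment 3 alone 1 member was higher and 0 lower, and with the Actb covariate 0 and 1.

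The change at 200 µM CoCl2 was last compared with the change after 24 h at 1% oxygen, taken as the mean of the 3 hypoxia sets, with no array in common. The changes differed for 2152 of 8251 genes (26.1%), with a higher change with CoCl2 for 809 (9.8%) and a lower one for 1343 (16.3%). By probe set it was higher for 1029 (9.5%), or 612 without control array 1 of experiment 3, and lower for 1561 (14.4%). Ccl5 rose by 6.37 with CoCl2 and changed by -0.03 with hypoxia, a difference of 6.40 ± 0.17 (limma adjusted p = 3.9e-16). Gm9706 (4.59), Isg15 (4.33), Stmn4 (3.23), Hspa1b (3.22) and Pkdcc (2.90) were the next named differences upward. Downward they were Mki67 (-4.63 ± 0.23), Ahr (-4.37), Top2a (-4.34), Anln (-3.81), Eps8 (-3.78) and the protease gene Prss23 (-3.68). Ahr went in opposite directions, with -1.52 at 200 µM CoCl2 and 2.85 in hypoxia. So did Itga4 (-1.89 and 1.51), Mitf (-2.01 and 0.89) and Cp (-1.67 and 1.03), each with an adjusted p of the difference of 5.6e-10 or less.

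HIF targets rose with both treatments. Their median was 1.73 with CoCl2 and 2.06 with hypoxia, and of 18 members the change with CoCl2 was higher for 4 and lower for 7. With the Gapdh covariate the change was higher for 1 and lower for 4 of these members, and with the Actb covariate for 1 and 7. Among all genes the change with CoCl2 was higher for 9.8% and lower for 16.3%. Vegfa changed by 2.88 with CoCl2 and 2.52 in hypoxia, a difference of 0.36 ± 0.20 that did not pass (adjusted p = 0.21). Bnip3 rose 0.63 ± 0.20 more with CoCl2 (limma adjusted p = 0.026). This call was lost in at least 1 of the fits that left out 1 of the 4 arrays. Adm (difference -1.48), Selenbp1 (-1.56) and Nppb (-2.90) rose less with CoCl2. The change with CoCl2 was lower than that with hypoxia for 33 of 40 mitosis genes and 28 of 40 replication genes, with medians of -2.20 and -1.65 at 200 µM and -0.26 and -0.71 in hypoxia. It was also lower for 12 of 15 pigment genes, with a median of -1.42 at 200 µM and -0.16 in hypoxia. Of 30 proteasome genes 22 were higher with CoCl2 and none was lower, with medians of 0.57 and -0.16, and of 20 heat shock genes 10 were higher and none lower. Of 24 NRF2 targets 10 were higher, Hmox1 by 2.30, and 1 was lower. With the Gapdh covariate these counts were 32 mitosis, 24 replication, 12 pigment, 19 proteasome, 9 heat shock and 10 NRF2 genes. The Actb value of the hypoxia sets, controls included, was 0.15 to 0.50, and experiment and treatment cannot be told apart where they differ between the sets.

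**Figure D5:**
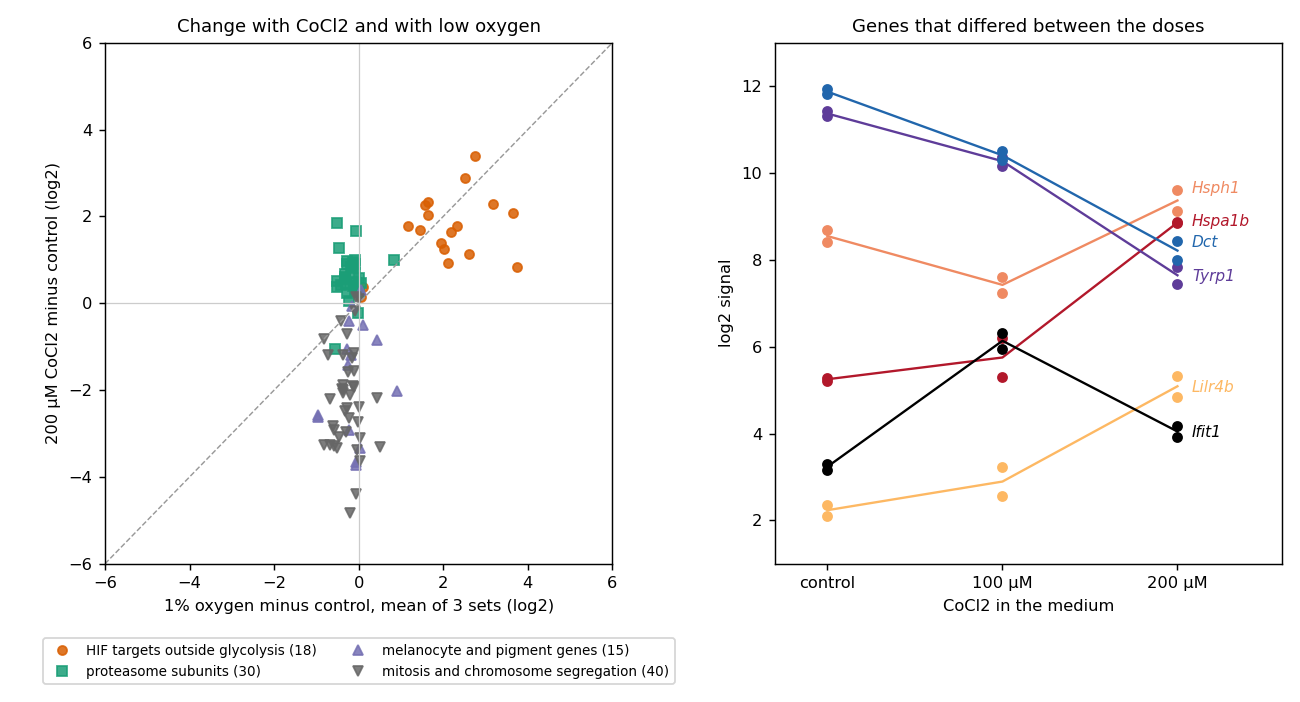
Left, the log2 change at 200 µM CoCl2 (y axis) is plotted against that at 1% oxygen (x axis) for 4 gene lists, with equal changes on the dashed line; right, the log2 signal of 6 genes on each array is plotted for control, 100 µM and 200 µM CoCl2, with lines through the means. HIF targets lie to the upper right, most mitosis and pigment genes lie below the dashed line, and Hspa1b (8.86 at 200 µM) separates the doses.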

How the data were processed

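RNA of B16-F10 cells was hybridised to 21 U74Av2 arrays, 1 per sample. The deposited values are log2 signals, made by the authors with GCOS 1.2 and RMA per the submitters' processing notes; for RMA, version and probe definition were not given in the sources used here. Values ran from 1.37 to 13.3 and array medians from 5.44 to 5.53, so no further normalization was done. The number of arrays limits the precision.

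Of 12488 probe sets, 66 Affymetrix controls, 396 with several genes and 1193 with no gene name were left out of the tests, which leaves 10833. Of these, 10817 matched a current RefSeq symbol and 16 kept the older name. A gene was represented by its probe set with the highest mean over the 21 arrays, and 2073 of 8251 genes had several. A family probe set has an identifier that ends in _f_at and can read several similar transcripts.

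Groups were taken from the sample titles. Hypoxia arrays whose titles name a chamber and no experiment were set against the controls whose titles carry no experiment number. limma 3.58.1 in R 4.3.3 fitted 1 mean per group to all 21 arrays (12 residual degrees of freedom, 20.1 after moderation), 2-sided, with Benjamini-Hochberg adjustment over the 10833 probe sets and a threshold of 0.05. Contrasts were 200 µM minus control, 200 µM minus 100 µM, and the change at 200 µM minus the mean hypoxia change. The fit of experiment 3 alone had 3 residual degrees of freedom, 9.6 after moderation. The script was tested on simulated data. Tables and figures were made with Python 3.11.15, pandas 2.3.3 and matplotlib 3.10.9. Promoter windows came from RefSeq (GRCm38.p6) by symbol.

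Named genes are the 15 highest and 15 lowest changes among steady genes, which were called in all 6 fits with the arrays of each pair within 1 log2 unit. To these were added up to 5 steady members of each list, a set of fixed genes, and up to 6 genes in each direction for the dose and hypoxia contrasts. Members and lists were chosen with earlier results of these data known, and further list members given as examples were chosen after their values were seen. Statements that the groups of a named gene lay apart thus follow in part from the choice of genes. Array numbers within groups did not pair the arrays (correlations of deviations 0.01, -0.354 and 0.062). Alternatives covered normalization, low-signal filter, probe set choice, variance model, array weights, quality covariates, replicate block and left-out arrays.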

Additional observations from a re-analysis of the deposited data

Results flagged for a closer look

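The following results were marked because the 200 µM response differed from that of another group by a direct test. Between doses (200 µM minus 100 µM CoCl2, log2, limma with Benjamini-Hochberg adjustment), Hspa1b (3.11), Lilr4b (2.19), Hsph1 (1.94), Pkdcc (1.83), Ccnf (1.70) and Stip1 (1.62) were higher at 200 µM. Tyrp1 (-2.63), Cadm1 (-2.36), Dct (-2.19), Ifit1 (-2.09), Scd1 (-1.85) and Dhrs7 (-1.77) were lower at 200 µM. For Cadm1 the family probe set was used, and its further sets changed by -1.50 and -0.30 against control.

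Between the change at 200 µM CoCl2 and the change at 1% oxygen, the difference was 6.40 for Ccl5, 4.59 for Gm9706, 4.33 for Isg15, 3.23 for Stmn4, 3.22 for Hspa1b and 2.90 for Pkdcc. It was -4.63 for Mki67, -4.37 for Ahr, -4.34 for Top2a, -3.81 for Anln, -3.78 for Eps8 and -3.68 for Prss23. Prss23 had 2.24 and 2.75 at 200 µM, against 5.49 and 5.35 in the controls.

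Probe sets with no gene name, which the comparisons did not use, also held calls. Of 1193 such sets 214 passed at 200 µM against control, 121 higher and 93 lower, and 393 had an unadjusted p under 0.05.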

How the results depend on the processing

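Counts are totals of separate fits. At 200 µM CoCl2 against control 4104 probe sets were called (1973 higher, 2131 lower), against 1995 with experiment 3 alone (622 higher, 1373 lower) and 1983 with the Gapdh covariate (814 higher, 1169 lower). Array weights gave 1225 higher and the fit on the 4 arrays 1014 higher. Leaving out 1 array gave 2763 to 3733 calls, 1111 to 1758 higher and 1652 to 1975 lower. Between the doses there were 1557 calls (740 higher, 817 lower), against 225 with array weights (104 higher, 121 lower), 137 with the Actb covariate (24 and 113), 286 with the Gapdh covariate (163 and 123) and 115 with experiment 3 alone (31 and 84). Leaving out 1 array gave 682 to 2364 such calls, 245 to 1156 higher and 437 to 1208 lower; the higher count was 493 without 100 µM array 1 and 1128 without 200 µM array 1. The change differed from the hypoxia change for 2590 (1029 higher, 1561 lower), while the Gapdh covariate gave 1096 (383 and 713), and leaving out 1 array gave 1731 to 2646, 612 to 1190 higher and 1119 to 1577 lower. With the array number as a replicate block, which shares only a number and does not pair the arrays, the counts were 3331, 1000 (472 higher, 528 lower) and 1853 (611 higher). Hif1a changed by 0.00 with the Gapdh covariate, against -0.35. Of 170 gene results, 10 lost their call with the Gapdh covariate and 4 with the Actb covariate. Averaging probe sets ended the calls of Fbln1 (-0.19), Sel1l (0.16) and Slc30a4 (-0.19). The causes were not tested.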

Other observations

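Some genes differed widely between the 200 µM arrays. Array 2 minus array 1 was 3.42 log2 units for the metallothionein gene Mt1, 2.16 for the acyl-CoA binding protein gene Dbi, 1.86 for Snd1, 1.85 for the complex I gene Ndufb6 and 1.84 for the RNA polymerase gene Polr2e. Dbi had 6.71 and 8.88 at 200 µM, against 6.99 and 7.89 in the controls, so the groups overlapped and its change of 0.36 did not pass (limma adjusted p = 0.49). The adhesion receptor gene Pvr had 5.38 and 7.13 at 200 µM, against 3.81 and 3.82 in the controls. Its treated arrays lay 1.75 log2 units apart and both above the controls, with a change of 2.44.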
